A study of Mus musculus with 8 samples.

Results

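Bdnf, Ntf3 and Gdnf, which encode neurotrophic factors, and the class 3 semaphorin genes Sema3a, Sema3b, Sema3c, Sema3d, Sema3e and Sema3f were followed in stromal cells of the mouse large intestine. These 9 genes were chosen by symbol, as factors directed toward enteric and sensory nerves, and all 9 were among the 24346 gene symbols listed for each library. RNA-seq of full-length cDNA was made from cells sorted as podoplanin-positive and free of CD45, CD31, EpCAM and 7AAD signal. The colons came from 8 mice aged 12 weeks. All 8 mice carried floxed alleles of Il10ra, a gene for the chain through which the interleukin-10 receptor binds its ligand. The 4 mice labelled WT had no further allele named and served as controls. The 4 mice labelled cKO also carried a Cre recombinase under the name of Pdgfra, a receptor gene of gut fibroblasts. The sort did not select for Pdgfra or for Cre, so that cells without recombination could be among those sorted. The study asked, by its title, how interleukin-10 sensing by fibroblasts bears on interferon responses and disease of the large intestine.

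Neurotrophins such as BDNF and NT-3, the product of Ntf3, are secreted as precursors that are cut by proprotein convertases, and they act through Trk receptors and the low-affinity receptor p75. GDNF binds a GFRA co-receptor and signals through the RET kinase, and in the gut it is needed for the migration and survival of the precursors of enteric neurons. Class 3 semaphorins are secreted guidance proteins that bind neuropilins and signal through plexins, mostly as repellents of growing axons and also in vessel growth.

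The 6 semaphorin genes lie on 2 chromosomes (GENCODE M21, GRCm38, which is the mm10 build of the files). Sema3d (12383385 to 12588948), Sema3a (13125414 to 13602565), Sema3e (14025276 to 14256689) and Sema3c (17574281 to 17730268) are all on the plus strand of chromosome 5, and no annotated protein-coding gene lies between Sema3d and Sema3a. Between Sema3e and Sema3c lie 3318 kb and 16 protein-coding genes. Sema3b (107597674 to 107609229) and Sema3f (107681500 to 107710475) are on the minus strand of chromosome 9 with 72.3 kb and 3 protein-coding genes between them. Bdnf is on chromosome 2 (109674700 to 109727007, plus strand), Ntf3 on chromosome 6 (126101412 to 126166910, minus strand) and Gdnf on chromosome 15 (7810846 to 7837575, plus strand). The gene Gm45346 overlaps the start of Bdnf on the opposite strand, and Gm4128 overlaps Sema3e on the opposite strand. Whether fragments were counted by strand is not given in the sources used here, so the values of both members are uncertain to that extent.

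The RefSeq promoter table (GRCm38.p6, 250 bases before to 50 after each start) held 7 of the 9 members and not Sema3b or Sema3f. Over all 32851 promoter windows of that length the median number of CG dinucleotides was 7. The window of Sema3c held 42 and that of Sema3a 2, with 8 for Sema3d and 11 for Sema3e, and 97.0% of all windows held fewer than that of Sema3c. Both the Sema3c and the Sema3a window belong to starts inside the gene as annotated in GENCODE, and that of Sema3c lies within an annotated first exon, so that its count is not one of bases upstream of the annotated gene. The 250 bases before the start are shown for Sema3d and Sema3e, which are both on chromosome 5 and differed in level, and for the first start of Gdnf. They run 5′ to 3′ on the plus strand, with each CG in capitals (4 for Sema3d, 7 for Sema3e and 7 for Gdnf). Sema3d is at chr5:12382916-12383165, Sema3e at chr5:14025026-14025275 and Gdnf at chr15:7809798-7810047.
Sema3d: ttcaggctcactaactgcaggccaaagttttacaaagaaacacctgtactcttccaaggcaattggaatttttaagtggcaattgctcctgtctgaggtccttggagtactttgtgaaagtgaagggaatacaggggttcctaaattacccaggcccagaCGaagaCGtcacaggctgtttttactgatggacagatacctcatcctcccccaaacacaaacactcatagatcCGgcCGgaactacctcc
Sema3e: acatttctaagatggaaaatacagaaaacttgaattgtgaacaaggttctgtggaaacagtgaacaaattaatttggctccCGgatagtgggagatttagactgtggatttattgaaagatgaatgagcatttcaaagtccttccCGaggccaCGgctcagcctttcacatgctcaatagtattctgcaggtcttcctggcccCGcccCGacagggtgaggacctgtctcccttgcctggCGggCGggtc
Gdnf: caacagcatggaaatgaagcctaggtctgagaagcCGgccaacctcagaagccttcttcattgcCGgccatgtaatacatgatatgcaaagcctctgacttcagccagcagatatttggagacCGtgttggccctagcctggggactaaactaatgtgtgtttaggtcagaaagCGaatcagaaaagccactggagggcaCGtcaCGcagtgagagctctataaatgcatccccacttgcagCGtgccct
The longer window of this Gdnf start held the sequence TATAAA, which 13.6% of all windows held on either strand.

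In 2 libraries transcripts of epithelial cells, which the sort was meant to remove, were high. The summed FPKM of 12 epithelial markers was 973 in cKO replicate 1 and 505 in cKO replicate 2, against 57.4 to 125 in the WT libraries and 48.3 and 133 in the other cKO libraries. In cKO replicate 1 the leukocyte markers (10 genes) summed to 570, against 279 to 387 in WT and 236 to 423 in the other cKO libraries. The fibroblast genes Dcn and Col3a1 had mean FPKM values of 7055 ± 277 and 5546 ± 138 in WT and 7098 ± 277 and 5286 ± 923 in cKO (SD, n = 4 each), so that genes of the labelled cell type were abundant in both groups. Enteric glia markers were low: 0 of 8 reached a mean FPKM of 1, and Sox10 lay between 0 and 0.171. Of 10 enteric neuron markers 3 reached a mean FPKM of 1, and Elavl4 and Chat were listed at 0 in all libraries. The neuron markers summed to 5.08 to 7.08 FPKM in WT and 4.96 to 6.51 in cKO. The glia markers, all near the floor, summed to 1.21 to 2.07 FPKM in WT. In cKO replicates 1 to 4 the glia sums were 3.98, 3.22, 1.87 and 2.53. The summed FPKM of blood endothelial markers was 6.12 to 9.27 in WT and 9.47 to 25.9 in cKO. That of lymphatic endothelial markers was 0.874 to 5.55 in WT and 6.27 to 15.7 in cKO. For both lists every cKO library lay above every WT library. Of the 8 markers in each list, 4 for blood and 1 for lymphatic endothelium reached a mean FPKM of 1. The lymphatic sum can thus rest largely on 1 gene, which had a log2 difference of 2.48 and was not called. With the mean log2 value of the epithelial markers as a covariate in limma, the log2 difference between genotypes was 0.04 for Gdnf (0.15 without the covariate), 0.05 for Sema3f (0.11) and 0.17 for Sema3a (0.10). It was -0.15 for Sema3c (-0.12), -0.06 for Ntf3 (-0.02) and -0.0047 for Sema3d (-0.04), and 0 of the 9 genes were called. No such fit was made with the leukocyte, endothelial or glia markers, so their part in the values was not tested. Il10ra itself was low in both groups (0.403 to 0.842 FPKM in WT and 0.273 to 0.636 in cKO; limma without a filter, log2 difference -0.13, SE 0.11, adjusted p = 1.00). The value sums the whole gene and the floxed part is not named in the labels, so it does not check the genotypes.

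The 9 genes spanned a wide range of levels, and their order was nearly the same in every library. FPKM divides fragments by gene length and library size, so that levels of different genes can be set side by side. Sema3c was the highest, with a mean FPKM of 158 over the 8 libraries, which lies above 97.9% of all listed genes. Sema3b followed at 26.0, Sema3d at 12.0, Sema3f at 8.58, Ntf3 at 4.97, Sema3e at 2.72, Sema3a at 0.934, Gdnf at 0.489 and Bdnf at 0.0547. Sema3c alone made up 73.9% to 78.2% of the summed FPKM of the 6 semaphorin genes in a library. It was 6.08 times as high as Sema3b, and Sema3b was 2.16 times as high as Sema3d. Each of the 8 steps down this order was in the same direction in at least 7 of 8 libraries and passed an exact sign-flip permutation test paired within library (two-sided, adjusted p = 0.0104 to 0.0234 over the 8 steps, on log2(FPKM + 1)). The order and the tests used the same values. By the ratio of mean FPKM the closest neighbours were Sema3d and Sema3f (1.40), whose ranges overlapped (10.9 to 13.3 and 5.72 to 12.7 FPKM) and whose order was turned in cKO replicate 1 alone. On the log2(FPKM + 1) scale the smallest step was that from Sema3a to Gdnf (0.39). These also overlapped, again with the order turned in cKO replicate 1 alone, and Sema3f and Ntf3 overlapped in range but kept their order in 8 of 8 libraries.

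**Figure D1:**
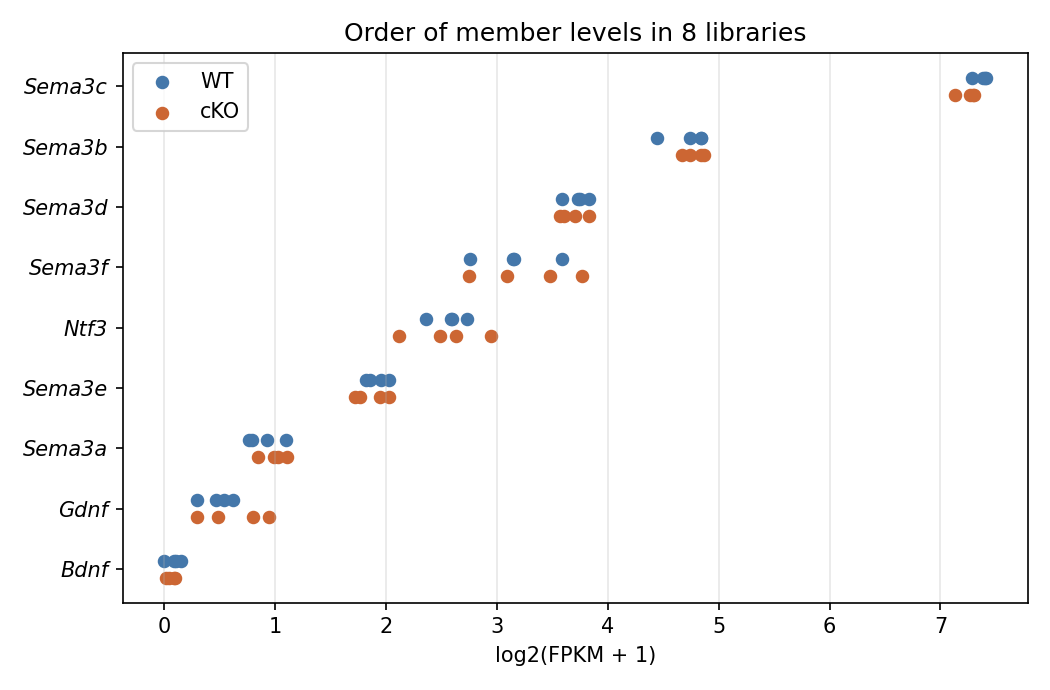
Levels of the 9 genes in each library on the log2(FPKM + 1) scale (x axis), ordered by mean FPKM (y axis), with WT libraries in blue and cKO libraries in orange. Sema3c stands apart at the top, Bdnf lies next to 0, and the points of both genotypes overlap for every gene.

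Among the neurotrophic factors Ntf3, which encodes NT-3, was the highest of the 3. Its FPKM was 4.14, 5.05, 5.64 and 5.02 across WT replicates 1 to 4. It was 6.73, 3.34, 4.62 and 5.22 in the cKO replicates in the same order. The cKO libraries held both the highest and the lowest value, and the WT libraries lay between them. The means were 4.96 ± 0.616 and 4.98 ± 1.41 (SD, n = 4 each), with a log2 difference on the log2(FPKM + 1) scale of -0.02 (SE 0.16, 95% interval -0.38 to 0.34, limma adjusted p = 0.994). The sign of this difference turned without WT replicate 3 (0.03) or cKO replicate 2 (0.12).

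Gdnf, the ligand of the GFRA1 and RET receptor pair, had an FPKM of 0.452, 0.385, 0.540 and 0.227 in WT replicates 1 to 4. In cKO replicates 1 to 4 it was 0.923, 0.406, 0.748 and 0.230. Replicates 1 and 3 of cKO lay above all WT libraries, and the other 2 lay within the WT range. The means were 0.401 ± 0.132 and 0.577 ± 0.316 (SD, n = 4 each), and the exact permutation test over libraries gave a two-sided p of 0.343. Gdnf was below the minimum mean FPKM of 1 set for the test, and in limma without that minimum the log2 difference was 0.15 (SE 0.15, 95% interval -0.22 to 0.52, adjusted p = 1.00). It was 0.05 without cKO replicate 1, the library with the highest epithelial and leukocyte marker sums, and 0.09 without WT replicate 4. Leaving out replicate 3 of cKO gave 0.10, and leaving out its replicate 4 gave 0.27. On the log2(FPKM + 0.1) scale the difference was 0.34, since adding 1 understates differences of low genes.

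Bdnf was close to the limit of detection. Its FPKM was 0.0767, 0.0657 and 0.112 in WT replicates 1 to 3, and it was listed at 0 in WT replicate 4. In cKO replicates 1 to 4 it was 0.0728, 0.0149, 0.0653 and 0.0303. After correction for relative depth, WT replicate 1, cKO replicate 1 and cKO replicate 4 stood at 5, 5 and 2 times the value of cKO replicate 2 to within 0.05. The other 3 libraries above 0 stood at 3.72, 7.44 and 4.66 times. A difference between genotypes was not detectable at this depth (exact permutation p = 0.543; limma without the minimum, log2 difference -0.02, SE 0.04, adjusted p = 1.00). The mean FPKM was 0.0635 in WT and 0.0458 in cKO, and on the log2(FPKM + 0.1) scale the difference was -0.13. Adding 1 understates differences of low genes, so the small SE does not show that levels were equal.

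Sema3c, a ligand of NRP1 and NRP2, had the smallest p of the 9 genes. Its FPKM was 169.5, 169, 166 and 154 across WT replicates 1 to 4. It was 156, 153, 156 and 139 across the cKO replicates. The highest 3 libraries were WT and the lowest was cKO, but WT replicate 4 lay below cKO replicates 1 and 3, so the groups overlapped. The means were 165 ± 6.96 and 151 ± 8.02 (SD, n = 4 each), with a log2 difference of -0.12 (SE 0.05, 95% interval -0.24 to -0.0017). This did not pass over all genes (limma unadjusted p = 0.0475, adjusted p = 0.897; exact permutation p = 0.0857). Without WT replicate 4 the groups no longer overlapped (exact permutation p = 0.0286, the smallest that 3 against 4 libraries can give), and without each of the other libraries in turn the exact p was 0.0857 to 0.114. Markers of adventitial fibroblasts (the CD81- and Pi16-positive cells of the deeper mucosa) were also read in these libraries. Of 8 such markers 4 (Pi16, Ackr4, Dpp4 and Grem1) were lower in cKO at an unadjusted limma p under 0.05. Of all tested genes 5.41% had such a p in either direction. The log2 differences of the others were 0.0033 for Cd81, 0.015 for Ly6c1, -0.0024 for Ly6a and -0.05 for Cd34. The list median log2 difference was -0.14, and 0 were called after adjustment. The summed FPKM of all 8 markers was 4533 to 4901 in WT and 4392 to 4707 in cKO. Their part in the Sema3c difference was not tested. In bulk libraries fewer cells of a type and less RNA per cell cannot be told apart.

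The other semaphorin genes on chromosome 5 did not pass either. Sema3d, a semaphorin also studied in vessel and heart development, had an FPKM of 13.3, 12.5, 11.0 and 12.3 in WT and 10.9, 11.2, 13.3 and 12.0 in cKO replicates 1 to 4. The 2 ranges were almost the same, and the log2 difference was -0.04 (SE 0.08, 95% interval -0.22 to 0.13, limma adjusted p = 0.975). Sema3e, which binds plexin D1 directly, had 2.63, 2.89, 2.54 and 3.08 in WT and 2.40, 2.85, 3.08 and 2.297 in cKO. Replicates 1 and 4 of cKO were the lowest libraries and replicate 3 lay at the top of the WT range, with a log2 difference of -0.05 (SE 0.10, 95% interval -0.28 to 0.17, limma adjusted p = 0.977). Sema3a, the founding axon repellent of the class, had 0.899, 0.734, 1.15 and 0.698 in WT and 0.801, 0.993, 1.16 and 1.04 in cKO. The ranges overlapped although 3 of the 4 lowest libraries were WT. The means were 0.870 ± 0.205 and 0.999 ± 0.1504 (SD, n = 4 each), and in limma without the minimum the log2 difference was 0.10 (SE 0.09, 95% interval -0.12 to 0.32, adjusted p = 1.00).

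The pair on chromosome 9 differed in how much it varied. Sema3b had an FPKM of 27.7, 25.8, 20.8 and 27.8 in WT and 24.5, 28.2, 27.6 and 25.7 in cKO. WT replicate 3 was the lowest library, the other 7 lay between 24.5 and 28.2, and the log2 difference was 0.06 (SE 0.09, 95% interval -0.15 to 0.27, limma adjusted p = 0.970). Without WT replicate 3 it was -0.03. Sema3f, a ligand of NRP2, had 7.88, 7.90, 11.0 and 5.78 in WT and 12.7, 5.72, 10.2 and 7.52 in cKO. Libraries of both genotypes were found at both ends of this range, and the coefficient of variation was 26.4% in WT and 33.7% in cKO, against 12.8% and 6.44% for Sema3b and 4.22% and 5.30% for Sema3c. The log2 difference of Sema3f was 0.11 (SE 0.23, 95% interval -0.40 to 0.62, limma adjusted p = 0.979), and it was -0.02 without WT replicate 4 and -0.06 without cKO replicate 1.

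**Figure D2:**
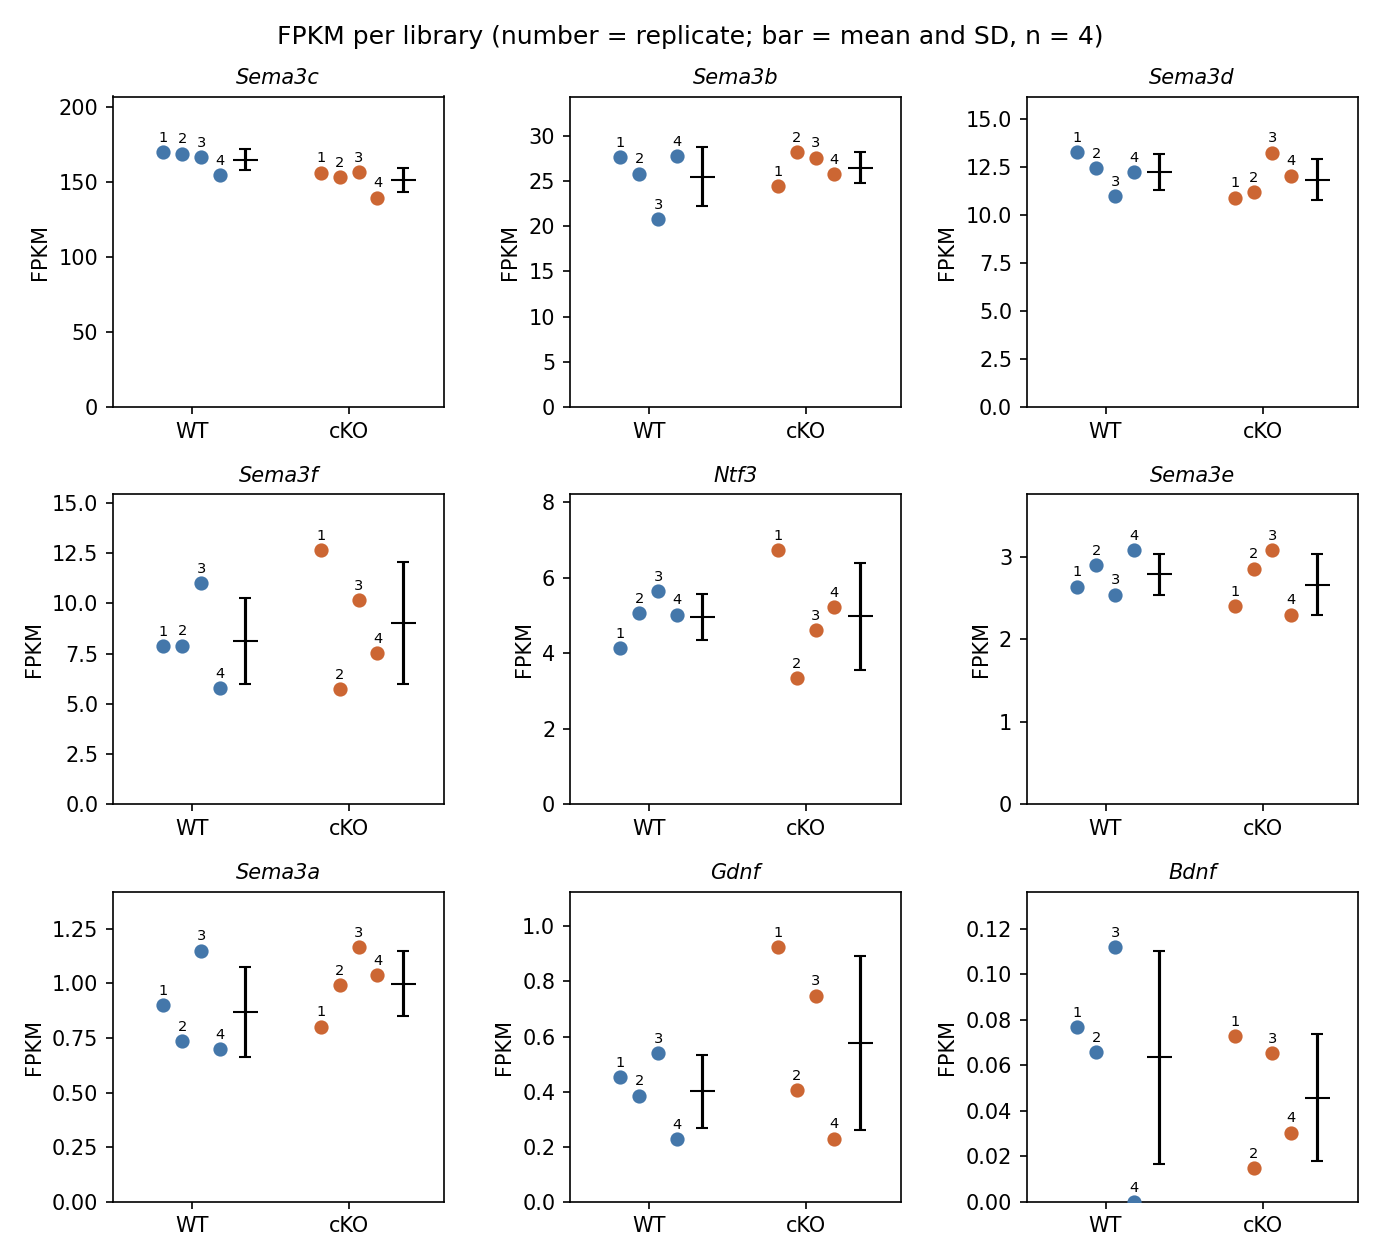
FPKM (y axis, from 0) of each gene in the 4 WT (blue) and 4 cKO (orange) libraries, with the replicate number above each point and the mean and SD as a bar. The groups overlap in all 9 panels, and Sema3f and Gdnf spread most widely in relation to their means apart from Bdnf.

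Over the 9 genes, 5 had a higher and 4 a lower mean FPKM in cKO, and the groups overlapped for all 9. Of the 6 genes that reached a mean FPKM of 1 (Ntf3, Sema3b, Sema3c, Sema3d, Sema3e and Sema3f), limma called 0 at an adjusted p under 0.05, where 0.00869% of all tested genes were called (1 of 11506, the small RNA gene Mir5098). At an unadjusted p under 0.05 the count was 1 of 6, namely Sema3c, against 5.41% of all tested genes, and the groups did not overlap for 0 of 6, against 3.26%. The median log2 difference of these 6 was -0.03 and that of all tested genes -0.01. The other 3 genes were fitted without the minimum, where 0 were called (0.00821% of 24346 genes) and 0 of 3 had an unadjusted p under 0.05 (4.26% of the 24346 genes). A p that misses the threshold does not show that levels were equal. Of the tested genes, the 95% interval on the log2(FPKM + 1) scale was widest for Sema3f, from -0.40 to 0.62, and narrowest for Sema3c.

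**Figure D3:**
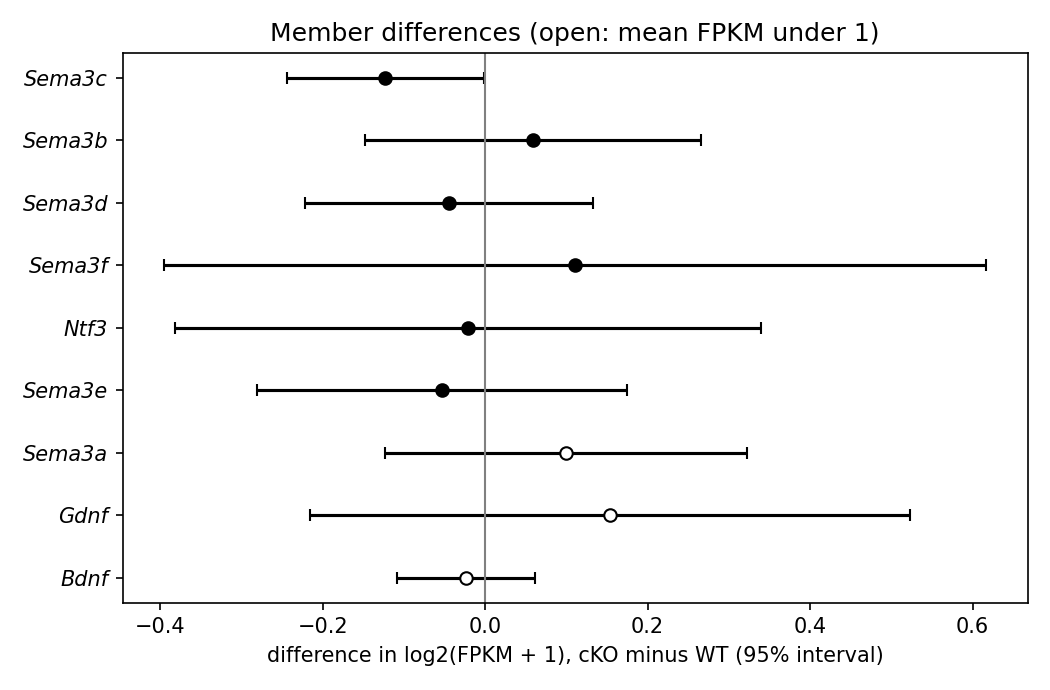
Difference in mean log2(FPKM + 1), cKO minus WT (x axis), with 95% intervals from limma for each gene (y axis, ordered by level), open for the 3 genes with a mean FPKM under 1. All intervals but that of Sema3c span 0, and the interval of Sema3c ends at -0.0017.

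Of the pairs among the 9 genes, none passed a test of relation across libraries after adjustment. Sema3f was high in cKO replicate 1 (12.7), WT replicate 3 (11.0) and cKO replicate 3 (10.2), and the same 3 libraries were the highest for Gdnf. Across the 8 libraries Sema3f and Gdnf had a Pearson r of 0.83 (exact permutation p = 0.0110, adjusted p = 0.256) and a Spearman rho of 0.79 (exact permutation p = 0.0279, adjusted p = 0.330), and r was 0.63 without the 2 libraries farthest from the median of Gdnf. Sema3f and Bdnf had an r of 0.82 (exact permutation p = 0.0142, adjusted p = 0.256) and a rho of 0.76 (exact permutation p = 0.0368, adjusted p = 0.330), with r at 0.55 without the 2 farthest libraries. Sema3f and Ntf3 had an r of 0.71 (exact permutation p = 0.0463, adjusted p = 0.417) and a rho of 0.69 (exact permutation p = 0.0694, adjusted p = 0.385), and r fell to 0.17 without the 2 farthest libraries, so that this relation rests on them. Bdnf and Sema3b went in opposite directions, with an r of -0.70 (exact permutation p = 0.0428, adjusted p = 0.417), a rho of -0.67 (exact permutation p = 0.0831, adjusted p = 0.385) and an r of -0.63 without the 2 farthest libraries. These are the 4 of 36 pairs with an unadjusted p under 0.05 for r. By Spearman's rho 5 of 36 pairs had an unadjusted p under 0.05, and the smallest p was that of Ntf3 and Sema3b, at a rho of -0.90 (exact permutation p = 0.00456, adjusted p = 0.164). Their Pearson r was -0.65 (exact permutation p = 0.104, adjusted p = 0.446), and -0.76 without the 2 farthest libraries. Sema3b and Sema3f had a rho of -0.81 (exact permutation p = 0.0218, adjusted p = 0.330) and an r of -0.65 (exact permutation p = 0.0709, adjusted p = 0.446), which was -0.30 without the 2 farthest libraries. Bdnf and Sema3c had a rho of 0.74 (exact permutation p = 0.0458, adjusted p = 0.330) and an r of 0.62 (exact permutation p = 0.1001, adjusted p = 0.446), which was 0.76 without the 2 farthest libraries. By either measure 0 of 36 pairs passed after adjustment. Bdnf lay between 0 and 0.112 FPKM, close to the limit of detection, so that its relations rest on values near the floor. The labels name no batch, and groups of 4 are too small for r within a genotype. With deviations from the group means in place of the values, r was 0.84 for Sema3f and Gdnf and 0.90 for Sema3f and Bdnf.

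Of the 11500 other tested genes, the one whose log2 values followed each member most closely over the 8 libraries was Ccdc85b for Sema3c (r = 0.97), Exosc10 for Sema3b (0.97), Commd6 for Sema3f (0.96), Cpm for Ntf3 (0.95), Gzf1 for Sema3e (0.95) and Epyc for Sema3d (0.94). These are the highest of 11500 values each, given as a description. Between 8 (Sema3b) and 33 (Sema3c) genes reached an r of 0.9 with a member.

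**Figure D4:**
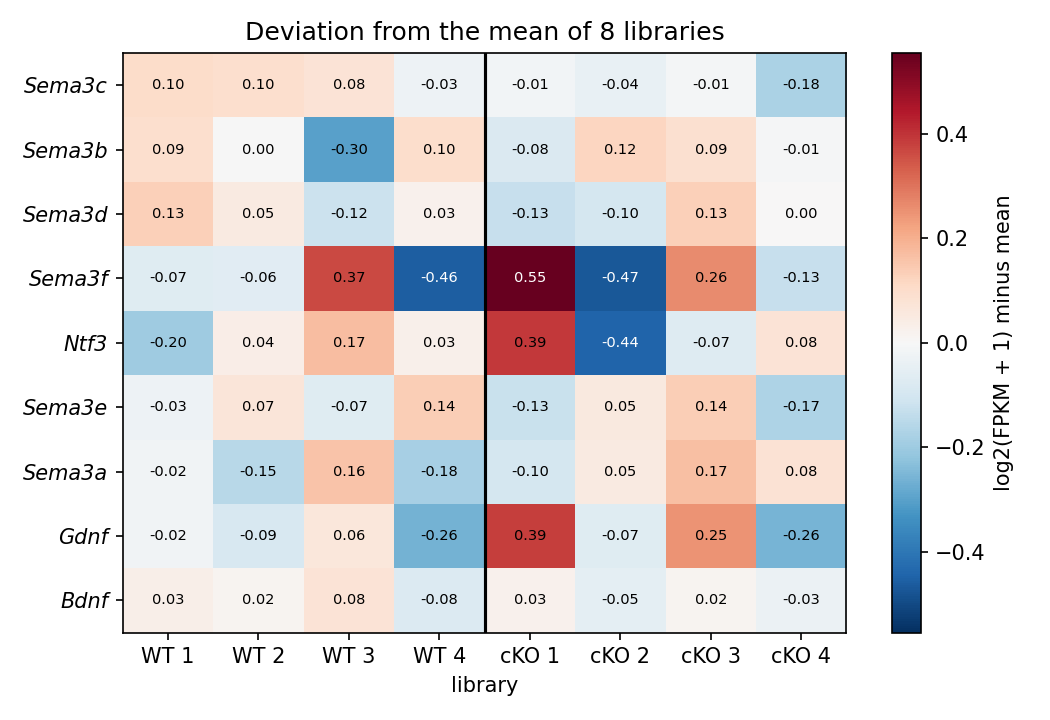
Deviation of each gene (y axis) in each library (x axis) from its mean over the 8 libraries, in log2(FPKM + 1), coloured from blue (lower) to red (higher). Sema3f, Ntf3 and Gdnf are highest together in cKO replicate 1, at 0.55, 0.39 and 0.39, and the line between genotypes separates no row.

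The wider set of nerve and guidance genes, 87 in 8 lists, showed no called gene either. Limma tested 59 of them and called 0, with 3 higher and 1 lower in cKO at an unadjusted p under 0.05, which is 6.78% against the 5.41% of all tested genes. Their median log2 difference was 0.01. Among the other secreted neurotrophic factors, 0 of 8 tested reached an unadjusted p under 0.05, and 6 of the 8 had a higher mean log2 value in cKO (list median 0.15). Manf, an endoplasmic reticulum protein with neurotrophic activity, had an FPKM of 54.4 ± 8.54 and 49.9 ± 8.15, and the heparin-binding growth factor Mdk 24.9 ± 4.56 and 28.2 ± 4.89 (SD, n = 4 each). Nrg1, a ligand of ERBB receptors, had 1.00 ± 0.528 and 1.36 ± 0.540.

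Receptors of the neurotrophic factors were low in these sorted cells. Ntrk2, the BDNF receptor, had an FPKM of 3.46 ± 0.670 in WT and 2.66 ± 0.822 in cKO (log2 difference -0.30, SE 0.17, limma adjusted p = 0.897). Ngfr, which encodes p75, varied from 0.644 to 5.38 in WT and from 0.642 to 5.23 in cKO, so that libraries differed far more than genotypes, and Sort1, the sorting receptor of neurotrophin precursors, had 1.66 ± 0.520 and 2.36 ± 0.775. Of the neurotrophin receptors 4 of 5 were tested, 3 with a higher and 1 with a lower mean log2 value in cKO, and 0 had an unadjusted p under 0.05. Of the GDNF family receptors 3 of 6 were tested, with 1 higher and 2 lower and 0 at an unadjusted p under 0.05. Gfra1, the co-receptor of GDNF, had 2.39 ± 0.648 in WT and 3.98 ± 2.15 in cKO (log2 difference 0.47, SE 0.29, limma adjusted p = 0.902), and Gfra2, the co-receptor of neurturin, 6.10 ± 1.21 and 5.68 ± 0.817. Gfra4, the co-receptor of persephin, had 1.28 ± 0.310 and 0.801 ± 0.335, with all cKO libraries below all WT libraries (1.09 to 1.74 and 0.343 to 1.07), but limma gave a log2 difference of -0.35 (SE 0.17, unadjusted p = 0.0655, adjusted p = 0.897; exact permutation p = 0.0286, the smallest that 4 against 4 can give). Of all tested genes 3.26% had no overlap between the groups. Gfral was listed at 0 in all libraries.

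Transcripts of class 3 semaphorin receptors were found in the same bulk libraries as those of the ligands. The neuropilin genes Nrp1 and Nrp2 had 43.4 ± 2.96 and 17.1 ± 1.36 in WT and 39.5 ± 7.51 and 16.9 ± 3.97 in cKO (SD, n = 4 each). Of the 9 receptor and co-receptor genes 5 were tested, 1 with a higher and 4 with a lower mean log2 value in cKO (median -0.08), and 0 had an unadjusted p under 0.05. Plxna2, the tested plexin gene with the smallest p, had 1.66 ± 0.357 and 1.44 ± 0.397. Of the 16 cytosolic partners of plexin signalling 12 were tested, 4 higher and 8 lower, with a median of -0.03 and 0 at an unadjusted p under 0.05. The small GTPase gene Rras had 120.1 ± 4.90 and 120.1 ± 6.09, and the kinase gene Fyn 89.9 ± 1.92 and 85.8 ± 2.80. Dpysl2, which encodes the collapsin response mediator CRMP2, had 81.5 ± 6.29 and 88.9 ± 4.24 (log2 difference 0.13, SE 0.06, limma adjusted p = 0.897), and Mical2, an actin-oxidising enzyme, 1.48 ± 0.170 and 1.80 ± 0.265.

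Semaphorins of the other classes were much lower than Sema3c. By the mean over all 8 libraries the highest was Sema4c, at 6.58 ± 1.49 in WT and 7.09 ± 0.522 in cKO. Sema6a, at 3.49 ± 0.372 and 3.44 ± 0.266, and Sema6c, at 3.59 ± 0.716 and 3.28 ± 0.417, came next and were close to each other (SD, n = 4 each). Sema3g, the remaining class 3 gene, lay between 0 and 0.0312. Of these 14 genes 9 were tested, 5 higher and 4 lower, and 1 had an unadjusted p under 0.05. That gene was Sema6b, a membrane-bound ligand of plexin A, with 2.17 ± 0.194 and 1.56 ± 0.280 and no overlap between the groups (1.93 to 2.35 and 1.16 to 1.77; log2 difference -0.31, SE 0.11, 95% interval -0.57 to -0.06, limma adjusted p = 0.897). The shares over all tested genes were 5.41% at an unadjusted limma p under 0.05 and 3.26% without overlap. Sema4a had 1.58 ± 0.355 and 2.25 ± 1.11.

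Among other guidance ligands, Slit3 and Rgmb were the most abundant. Slit3, a ligand of ROBO receptors, had 141 ± 7.65 in WT and 136 ± 11.0 in cKO, and Rgmb, a BMP co-receptor, 43.8 ± 5.90 and 42.6 ± 7.58 (SD, n = 4 each). Of these 18 genes 13 were tested, 10 with a higher and 3 with a lower mean log2 value in cKO, and 2 had an unadjusted p under 0.05, both higher. They were the netrin gene Ntn1, at 26.0 ± 1.37 and 29.3 ± 2.04 (log2 difference 0.17, SE 0.06, limma adjusted p = 0.897), and the ephrin gene Efna4, at 0.844 ± 0.127 and 1.33 ± 0.378. Of the proteases that process neurotrophin and semaphorin precursors 5 of 8 were tested, 2 higher and 3 lower, and 1 of them (Pcsk7) had an unadjusted p under 0.05. Plat, the tissue plasminogen activator, which can activate the plasmin that cuts pro-BDNF, had 359 ± 28.5 and 331 ± 30.3, and Pcsk5, a proprotein convertase, 131 ± 3.43 and 123 ± 23.4. Pcsk7, another convertase, had 8.63 ± 0.347 in WT and 10.4 ± 0.378 in cKO, with no overlap between the groups (8.16 to 8.997 and 9.99 to 10.9; log2 difference 0.24, SE 0.06, 95% interval 0.11 to 0.37). It had the smallest p of the 59 genes (limma unadjusted p = 0.00254, adjusted p = 0.897). The groups did not overlap for the ephrin gene Efnb1 either, at 5.28 to 5.64 in WT and 5.81 to 7.45 in cKO (limma unadjusted p = 0.0973). The share without overlap was 3.26% of all tested genes.

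**Figure D5:**
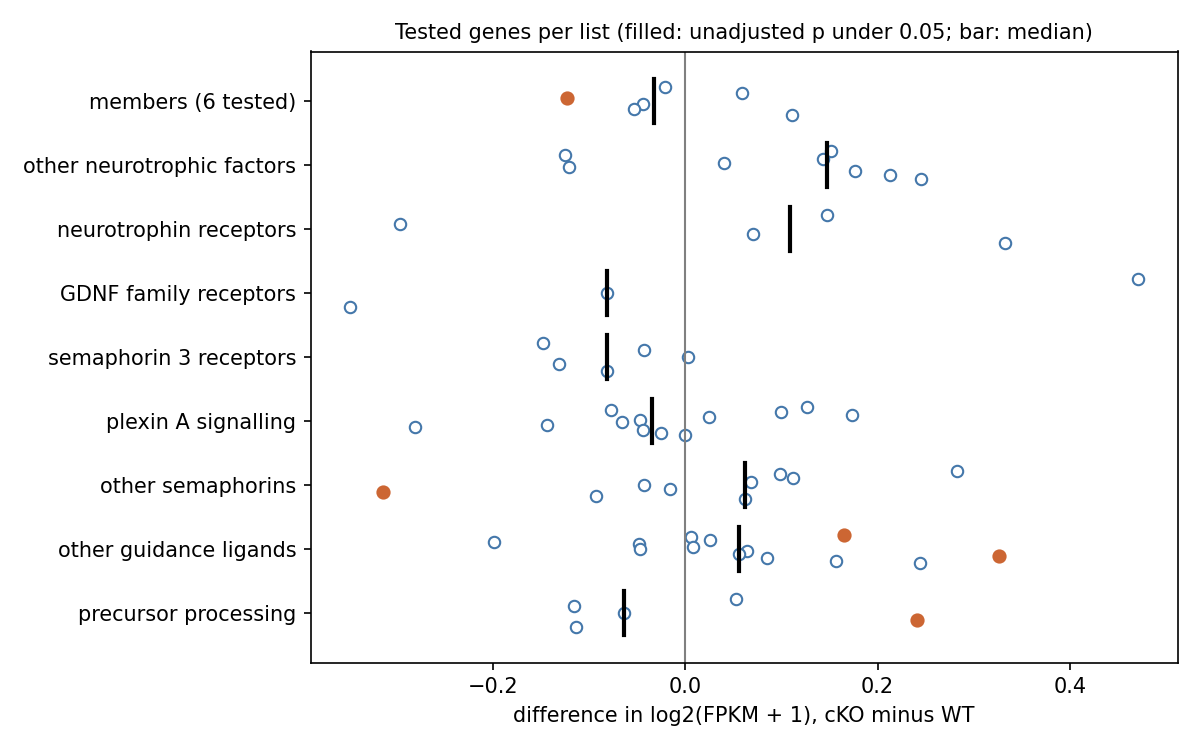
Difference in mean log2(FPKM + 1), cKO minus WT (x axis), of each tested gene (circles) in each list (y axis), filled where the unadjusted limma p is under 0.05, with the list median as a bar. Filled circles are Sema3c, Sema6b, Ntn1, Efna4 and Pcsk7, and no gene passed after adjustment.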

How the data were processed

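Deposited by the authors for each of the 8 libraries was a table of FPKM (fragments per kilobase of gene, scaled to library size). The design text gives 4 mice per genotype, as many as there are libraries. Named in the submitters' processing notes are Cufflinks 2.2.1 with Cuffdiff, the mm10 build, SAMtools 0.1.18, TopHat2 2.1.1 and Bowtie2 2.3.5.1. Their settings, the annotation and any further scaling are not stated there. Groups and replicate numbers came from the titles.

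FPKM are not counts, so no count model was used. Values were tested as log2(FPKM + 1) with limma 3.58.1 (R 4.3.3; lmFit, eBayes with trend) on the 11506 genes whose mean FPKM reached 1, with Benjamini-Hochberg adjustment over all of them and a threshold of 0.05. Genes below that minimum were fitted among all 24346. The exact permutation test of 4 against 4 libraries has 70 arrangements and a smallest two-sided p of 0.0286. Depth was read from whole-number steps of low values (mean FPKM under 0.3, tolerance 0.002 on the log2 scale), on which 48.0% to 56.3% of genes lay, against 1.28% to 2.58% at random offsets. Relative depth was 0.868 to 1.10. Between 15815 and 16323 genes were above 0 in a library, and correlations between libraries of 0.965 to 0.989 showed no copies.

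The members and lists were chosen with earlier results of these data known. Named genes were the members, per pathway list the 2 most abundant and the 2 with the smallest p (or called genes), the closest gene to each tested member, and abundant markers. Sox10, Elavl4, Chat, Pi16, Ackr4, Dpp4, Grem1, Cd81, Ly6c1, Gfral, Plxnd1, L1cam, Plxna4, Chl1, Sema3g, Sema6c, Efnb1 and Mir5098 were named after their values were seen. Values of some genes that this rule names, most of the markers among them, are not reported here. Same-numbered libraries were checked for pairing by correlating deviations from group means. The procedure was tested on simulated data. Plots and exact tests used matplotlib 3.10.9, scipy 1.17.1, numpy 2.4.6 and pandas 2.3.3 under Python 3.11.15.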

Additional observations from a re-analysis of the deposited data

How the results depend on the processing

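Of the 9 genes, 0 were called in limma under any of the 18 alternatives, and 149 of 154 refitted log2 differences kept their sign. The other 5 turned when 1 library was left out. The lowest and highest values when a library was left out were -0.16 and 0.12 for Ntf3, -0.032 and 0.10 for Sema3b and -0.056 and 0.29 for Sema3f. Ntf3 was at 0.03 without WT replicate 3 and 0.12 without cKO replicate 2, Sema3b at -0.032 without WT replicate 3, and Sema3f at -0.02 without WT replicate 4 and -0.056 without cKO replicate 1. The count of tested members at an unadjusted p under 0.05 (1, Sema3c) was 0 with a minimum mean FPKM of 5, with median-of-ratios scaling, with quantile normalization and with eBayes without a trend or with robust estimation, and 0 to 1 when a library was left out. Of the members, 0 had an exact p under 0.05 in the full set, and 0 to 1 did when a library was left out (Sema3c without WT replicate 4). Over all genes the count called was 1 (Mir5098) and 2 without a filter (Mir5098 and Sectm1a), with 1 to 4 when a library was left out; the 4 without cKO replicate 1 were Mir5098, Igtp, Tgtp2 and Gbp8, the 3 without WT replicate 3 were Mir5098, Gm1987 and Ccl21a, and the 2 without cKO replicate 2 were Mir5098 and AF357425. None of these is a member. All 8 steps in the order of levels passed when each library was left out (sign-flip test, largest adjusted p = 0.0469). Here too the order and the tests used the same values, and the reduced sets share most libraries. For relations between members, 2 of 36 pairs passed with deviations from group means (Bdnf with Sema3f and Gdnf with Sema3c, Pearson adjusted p = 0.0429 each, a test that does not count the means removed), and 0 to 1 when a library was left out (Ntf3 with Sema3d without cKO replicate 2). The cause of these changes was not tested. With the replicate number as a block, 0 members and 1 gene were called. Same-numbered libraries had correlations of deviations of 0.02 to 0.09, and differently numbered ones of -0.12 to 0.13. These values gave no sign of pairing by number, but they cannot exclude it. Scaling moved the median of all genes by at most 0.01. The number of fragments behind each value is unknown, which limits Bdnf most, its pair with Sema3f included.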
